A study of Mus musculus with 11 samples.

Results

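4T1 mouse mammary carcinoma cells, an established line, were compared 72 h after the start of a 4 h exposure to 5 uM 4HC with cells given vehicle and also collected at 72 h. 4HC, a hydroperoxide of cyclophosphamide, becomes the active alkylating metabolite in culture medium without the liver enzymes that cyclophosphamide itself needs. After the exposure the drug was washed out and the cells stayed in fresh medium for 68 h, and RNA was taken from the cells of a culture well. The 4HC group had 3 libraries and the vehicle control 2, of 11 libraries in the series. The other groups were 4HC with an antibody against the interferon receptor subunit IFNAR1 at 10 ug/mL (3 libraries) and IFNβ at 250 U/mL for 4 h (3 libraries), collected 2 h after the wash by the sample labels and the study's methods, although the labels' protocol text gives 68 h. IFNβ and control cells therefore differed in time of collection as well. All 24197 gene rows of the table were members of the comparison, and the description turns on gene programmes other than the interferon, chemokine and mitosis genes.

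Cyclophosphamide metabolites crosslink DNA strands, and cells that outlive such damage are known to change what they secrete and how they hold on to their surroundings. Proteases, matrix proteins, prostaglandins and growth factors make up much of the secretome of damaged epithelial cells. Aldehyde dehydrogenases and glutathione transferases are known for removing the aldehyde and the alkylating products of this drug, and ABC transporters for exporting drugs and their conjugates.

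Each level is the authors' mean FPKM over the libraries of a group (fragments per kilobase of gene, scaled to the reads of each library), and the table holds no value for a single library. The authors' own test results in the table were not used, so no spread between libraries and no test is given here, and each difference below is a difference of 2 means. A gene counted as measured when the higher group reached 1 FPKM, which 10600 genes did. A measured gene was called higher or lower when log2 of (4HC + 0.1)/(control + 0.1) was at least 1 or at most -1, a fold of 2. On this scale folds of genes near 0 FPKM are understated. In bulk RNA, more cells that express a gene and more RNA per cell cannot be told apart, and reads of near-identical family members or pseudogene copies (tubulins, keratins, actins, ferritins, Eef1a1) may be divided among them. In all 1361 measured genes (12.8%) were called higher and 255 (2.41%) lower, and these shares are the background for every list below. Of the lower calls 190 were at 1 FPKM or more with 4HC, and 65 were measured only through the control group. Of the higher calls 838 were already at 1 FPKM or more in control, and 523 were measured only through the 4HC group. Such genes could be called in 1 direction only, so for each list whose higher calls include them the count among members at 1 FPKM or more in both groups is given as well, to be read against 8.68% of 9659 genes (838). The median log2 ratio of all measured genes was 0.11, and 0.07 for the 9659 genes at 1 FPKM or more in both groups.

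Calls of higher expression were more common at low levels. Of 1627 genes with a mean of 0.5 to 2 FPKM over both groups, 28.9% were called higher, against 12.4% of 5086 genes at 2 to 10 FPKM, 6.83% of 3222 genes at 10 to 50 FPKM and 5.71% of 665 genes above that. Of the 1361 higher calls, 202 were on the interferon, chemokine or mitosis lists and 1159 were not. Of these 1159 genes, 879 were below a fold of 2 over control with IFNβ. The remainder reached that fold with IFNβ, so being outside the lists does not set a gene apart from the interferon response. Of the 255 lower calls, 93 were microRNA or small nucleolar RNA loci, whose reads in a poly(A)-selected library cannot be told apart from those of the host genes, and 162 were other genes.

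**Figure D1:**
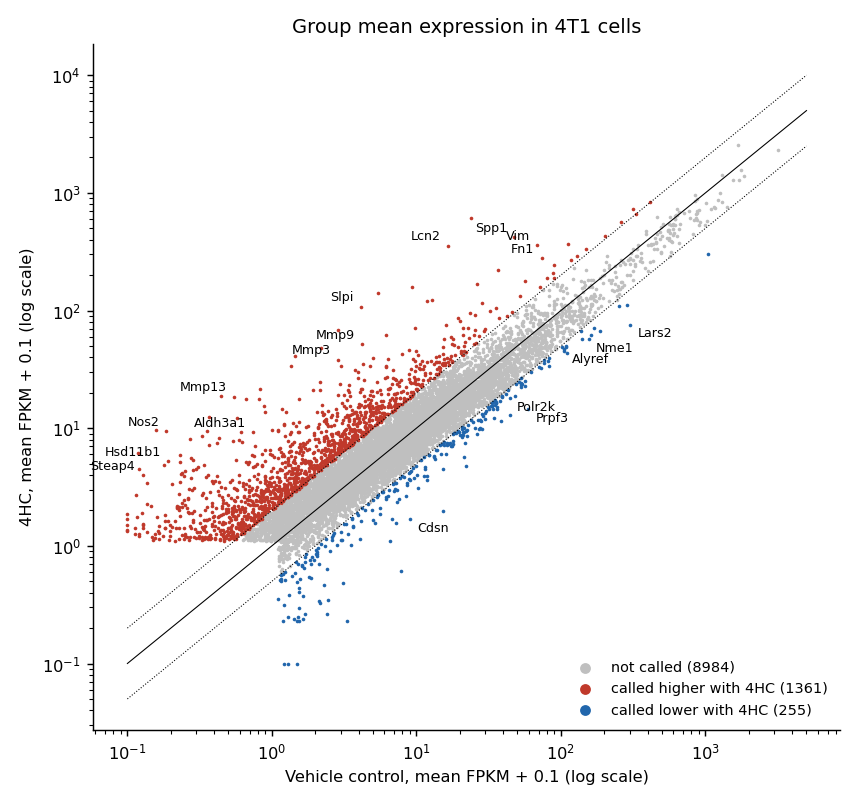
Authors' mean FPKM + 0.1 in vehicle control (x axis, log scale) and with 4HC (y axis, log scale) for the 10600 measured genes, each a point. Red points are the 1361 genes called higher, blue the 255 called lower and grey the rest. The solid line marks equal levels and the dotted lines a fold of 2, and the red points are spread over the left side, where control levels are low.

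Outside the interferon, chemokine and mitosis lists, and setting aside genes at a fold of 2 or more over control with IFNβ, the 15 largest differences upward among genes that reached 5 FPKM were led by Bst1, a surface enzyme that consumes NAD and was first known from bone marrow stroma. Bst1 was at 0.267 FPKM in control and 12.3 with 4HC (log2 ratio 5.08). Secreted proteins made up most of the rest. The calcification inhibitor Mgp was at 0.726 FPKM in control and 21.3 with 4HC. Complement component C3 was at 2.79 and 67.6 FPKM, and the complement protease C1s1 at 0.517 and 7.54. The serpin Serpina3g was at 0.176 and 5.48 FPKM. P-selectin (Selp), an adhesion molecule known from platelets and endothelium, was at 0.184 and 5.25 FPKM, and the carbonyl reductase Cbr2 at 0.781 and 15.4. The other members of the 15, Mmp13, Mmp10, Mmp3, Hsd11b1, Slpi, Lcn2, Plat and Aldh3a1, are described with their programmes.

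The 15 largest differences downward among such genes were smaller, at log2 ratios of -2.42 to -1.32. Cdsn, which encodes the adhesion protein corneodesmosin, was at 8.97 FPKM in control and 1.59 with 4HC. Several of the others act on RNA. The spliceosome protein Prpf3 was at 59.3 and 14.5 FPKM, the splice-site factor U2af1 at 161 and 62.3, the cyclophilin Ppil4 at 27.3 and 9.96, and the mitochondrial leucyl-tRNA synthetase Lars2 at 302 and 75.8. Thumpd1, a partner of tRNA acetylation, was at 22.3 and 8.47 FPKM, and Elp6, of the Elongator complex, at 8.55 and 3.21. Mitochondrial proteins were also present, with the complex III subunit Uqcrq at 285 and 111 FPKM and the complex IV assembly factor Cox20 at 15.1 and 4.40. The nucleoside diphosphate kinase Nme1 was at 155 and 57.1 FPKM, and the apolipoprotein Apoe at 9.91 and 3.91. Deb1 was at 25.4 and 9.85 FPKM, 1600002K03Rik at 7.48 and 2.42, and 1500011K16Rik at 11.3 and 3.83. The ribosomal RNA precursor locus, listed as RN45S, was at 1038 FPKM in control and 299.9 with 4HC. Ribosomal RNA in a poly(A) library also reflects how well the selection worked, and its part in the other lower calls was not tested.

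Matrix metalloproteinases cleave collagens and other matrix proteins, and the ADAM and ADAMTS families shed surface proteins and cut proteoglycans. Of 26 such genes 14 were measured and 8 of these (57.1%, against 12.8% of all measured genes) were called higher, with none called lower. The median log2 ratio of the measured members was 1.38, and 0.94 over all 26. Of the 9 members at 1 FPKM or more in both groups 3 were called higher, so 5 of the 8 calls entered the measured set through the 4HC group. Mmp13, a collagenase, was at 0.448 FPKM in control and 18.5 with 4HC (log2 ratio 5.08). The stromelysin Mmp10 was at 0.267 and 7.14 FPKM, and the stromelysin Mmp3 at 2.76 and 38.0. Mmp9, a gelatinase, was at 4.096 FPKM in control and 51.3 with 4HC (log2 ratio 3.62). Adamts4, Adam8, Adam12 and Adam19 were the other members called. The membrane protease Mmp14 had 19.6 and 38.2 FPKM, a fold below 2, and Adamts1 was the member with the lowest ratio, at 10.4 and 7.24 FPKM.

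Mmp13, Mmp3 and Mmp10 lie near each other on chromosome 9, where the table lists 10 Mmp genes. In the table's mm9 coordinates Mmp13 spans 7272513 to 7283333, Mmp3 7445821 to 7455974 and Mmp10 7502341 to 7510242. The genes between and beside them did not reach 1 FPKM. Mmp1b was at 0.00700 FPKM in control and 0.319 with 4HC, Mmp12 at 0.0116 and 0.0803, Mmp1a at 0.0220 and 0.0740 and Mmp27 at 0 and 0.0125, while Mmp8, Mmp20 and Mmp7 were listed at 0 in both groups. Of the 10 neighbours, then, only Mmp13, Mmp3 and Mmp10 were measured, and all 3 were called higher. Mmp13 (0.448 FPKM in control) and Mmp10 (0.267) were measured only through the 4HC group and could be called in 1 direction only. Mmp3, at 2.76 FPKM in control, was the only neighbour at 1 FPKM or more in both groups.

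The promoters of these 3 neighbours are shown because all 3 were called higher from control levels below 3 FPKM and because metalloproteinase promoters are textbook examples of AP-1 control. Each line gives the 250 bases before the transcription start, 5' to 3' on the gene's strand, from RefSeq in build GRCm38.p6, with capitals for the letters of the AP-1 motif TGANTCA.
Mmp13 (chr9:7272264-7272513, + strand): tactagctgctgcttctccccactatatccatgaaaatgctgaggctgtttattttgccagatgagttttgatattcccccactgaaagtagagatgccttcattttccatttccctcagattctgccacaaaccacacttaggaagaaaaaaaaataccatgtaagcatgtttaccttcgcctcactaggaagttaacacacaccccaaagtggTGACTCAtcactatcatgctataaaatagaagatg
Mmp3 (chr9:7445572-7445821, + strand): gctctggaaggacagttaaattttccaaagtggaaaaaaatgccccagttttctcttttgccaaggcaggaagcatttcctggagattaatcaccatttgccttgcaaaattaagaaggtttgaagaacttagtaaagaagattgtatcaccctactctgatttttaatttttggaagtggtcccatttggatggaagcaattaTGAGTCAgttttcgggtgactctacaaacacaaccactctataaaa
Mmp10 (chr9:7502092-7502341, + strand): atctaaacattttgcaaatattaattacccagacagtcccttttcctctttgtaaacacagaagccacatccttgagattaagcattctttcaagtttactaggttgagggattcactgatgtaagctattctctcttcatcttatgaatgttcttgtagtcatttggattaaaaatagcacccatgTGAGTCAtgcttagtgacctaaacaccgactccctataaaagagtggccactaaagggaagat

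Each of the 3 held the motif in this window, with its first base 35 bases before the start in Mmp13, 46 in Mmp3 and 63 in Mmp10. The 3 were chosen with AP-1 control of such promoters known, so this is a description and not independent support. Of the 8 proteases called higher, 5 had a promoter sequence. Of these, 4 (Mmp13, Mmp3, Mmp10 and Adam19) held the letters in the 250 bases before at least 1 start, Adam19 not before all of its starts. The other, Adam8, did not hold them there. Across genes with a promoter, counting 250 bases before to 50 after the start and both strands, TGANTCA was present for 10.8% of 989 genes called higher, 5.08% of 118 called lower, 6.12% of 7881 measured genes and 8.39% of all 16960 genes. Outside the interferon, chemokine and mitosis lists the share among genes called higher was 10.4% of 833.

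The other motifs were described in the same way. The antioxidant response letters TGACNNNGC were in promoters of 17.4% of genes called higher, 19.5% of those called lower and 17.3% of measured genes. The cyclic AMP response element TGACGTCA was present for 2.33%, 1.69% and 3.92%, the NF-kB-like motif (GGG, any 2 bases, TTTCC) for 3.44%, 2.54% and 2.12%, and the CArG-like motif (CC, any 6 bases, GG) for 89.2%, 81.4% and 89.8%. The hypoxia response core ACGTG was present for 24.3%, 34.7% and 30.7%. TGANTCA and TGACNNNGC can share bases, as can TGACGTCA and ACGTG. Calls of higher expression were more common at low levels, and whether promoter composition differs with level was not tested. These shares are therefore a description of the called genes only.

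**Figure D2:**
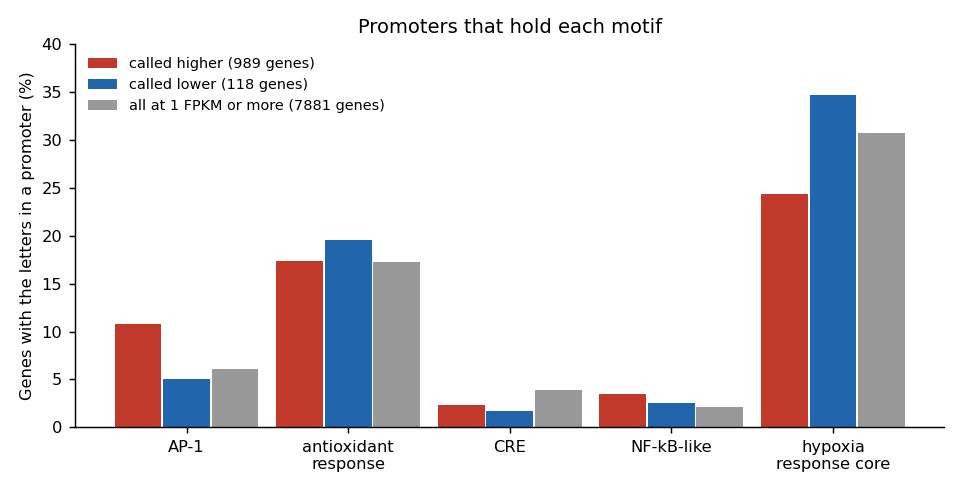
Percent of genes (y axis) with a promoter that holds each motif (x axis), for the 989 genes called higher (red), the 118 called lower (blue) and all 7881 measured genes with a promoter (grey). The AP-1 letters are in 10.8%, 5.08% and 6.12% of them, and the hypoxia response core in 24.3%, 34.7% and 30.7%.

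Inhibitors and activators of proteolysis accompanied the metalloproteinases. Of 10 protease inhibitors 5 were measured and 2 were called higher. Slpi, the secretory leukocyte protease inhibitor, was at 4.04 FPKM in control and 108 with 4HC (log2 ratio 4.70), and Wfdc2 of the same domain family at 80.1 and 188. The metalloproteinase inhibitors Timp1, at 10.4 and 18.2 FPKM, and Timp2, at 62.8 and 65.7, stayed below a fold of 2. In the plasminogen system 3 of 6 measured genes were called higher (2 of 5 at 1 FPKM or more in both groups). These were tissue plasminogen activator Plat (0.494 and 7.81 FPKM), urokinase Plau (9.78 and 45.0) and tissue factor F3 (3.27 and 7.06).

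Matrix and adhesion genes were the next programme. Of 17 measured matricellular proteins and proteoglycans, 11 (64.7%) were called higher and none lower, with a median log2 ratio of 1.32, and 0.91 over all 28 members. Osteopontin (Spp1), a secreted integrin ligand, was at 47.3 FPKM in control and 418 with 4HC (log2 ratio 3.14). Periostin (Postn) was at 0.630 and 5.77 FPKM, tenascin C (Tnc) at 0.287 and 2.09, and the hyaluronan synthase Has2 at 0.636 and 4.60. Fibronectin (Fn1), an abundant member, was at 73.4 and 277 FPKM, and thrombospondin 1 (Thbs1) at 19.9 and 80.6. Of the 12 members at 1 FPKM or more in both groups 6 were called higher.

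Laminins anchor epithelial cells to basement membrane, and 4 of 9 measured genes of the laminin list were called higher (3 of 8 at 1 FPKM or more in both groups). Lama3 was at 0.349 FPKM in control and 2.07 with 4HC, Lamb3 at 3.18 and 14.9, and the proteoglycan Agrn at 15.2 and 34.4. Integrins join such ligands to the cytoskeleton, and 5 of 12 measured members were called higher. Only 1 of the 8 at 1 FPKM or more in both groups (Itga2) was among them, and the other 4 were measured only through the 4HC group. Itgb3, the β3 chain of osteopontin receptors, was at 0.0922 and 1.53 FPKM, the collagen receptor chains Itga1 at 0.0979 and 1.11 and Itga2 at 2.22 and 11.6, and Itgb7 at 0.594 and 2.54. Itgb1, the most abundant integrin, was at 132 FPKM in control and 116 with 4HC.

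The keratins and intermediate filaments had 6 of 13 measured members called higher (4 of 11 at 1 FPKM or more in both groups). Vimentin (Vim), the mesenchymal filament, was at 68.1 FPKM in control and 359.5 with 4HC (log2 ratio 2.40). Some basal and wound-edge keratins were also called higher, with Krt14 at 1.61 and 10.1 FPKM, Krt16 at 0.119 and 2.00, and Krt17 at 0.0289 and 1.41. Krt16 and Krt17 were measured only through the 4HC group, and the basal keratin Krt5 was not measured (0 and 0.0142 FPKM). Krt14 and Krt16 were higher still with IFNβ, at 19.7 and 2.93 FPKM. Of 10 measured factors of epithelial to mesenchymal transition, which drive or restrain the switch between these states, Klf4 alone was called higher (2.75 and 7.45 FPKM), and the most abundant members, the epithelial factors Klf5 and Esrp1, were at 24.0 and 16.1 FPKM and at 13.8 and 9.80. E-cadherin (Cdh1) was at 63.0 and 50.5 FPKM.

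Junction genes gave a mixed picture. In the desmosome and cornified envelope list 3 of 11 measured genes were called higher, the peptidase Klk10 (1.20 and 3.34 FPKM), periplakin Ppl (1.13 and 2.69) and plakoglobin Jup (6.99 and 14.95), beside the lower call of Cdsn. Among tight and adherens junction genes 3 of 19 (15.8%) were called higher, near the background of 12.8%, and 1 of 17 at 1 FPKM or more in both groups. These were the claudin Cldn1 (0.0129 and 1.31 FPKM), the scaffold Tjp3 (0.486 and 2.09) and β-catenin Ctnnb1 (71.1 and 159). Of 6 measured gap junction and aquaporin genes 3 were called higher (1 of 4 at 1 FPKM or more in both groups), among them the water channels Aqp1 (0.253 and 3.76 FPKM) and Aqp5 (0.546 and 2.49).

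Tubulins, the subunits of microtubules, had the largest share called among the cytoskeletal lists, 9 of 12 (75.0%, and 6 of 9 at 1 FPKM or more in both groups), with a median log2 ratio of 1.35, and 1.24 over all 15 members. Tubb2b was at 0.292 FPKM in control and 3.31 with 4HC, Tubb2a at 1.68 and 10.2, Tuba1a at 17.2 and 58.9, and Tubb4b at 20.9 and 71.3. IFNβ cells were also above control for these genes, at 1.69, 6.83, 23.1 and 94.2 FPKM, and the list's median with IFNβ was 1.12. In the actin list 2 of 20 (10.0%) were called higher, the calponin Cnn2 (22.6 and 71.1 FPKM) and cytoplasmic actin Actg1 (330.4 and 661), although the list's median was 0.64 with 4HC and 0.70 with IFNβ. Microtubules form the mitotic spindle, and 81 of 94 measured mitosis genes were called higher (86.2%, against 12.8% of all measured genes). At 1 FPKM or more in both groups 74 of 87 were. Whether the tubulin differences go with those of the mitosis genes was not tested.

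**Figure D3:**
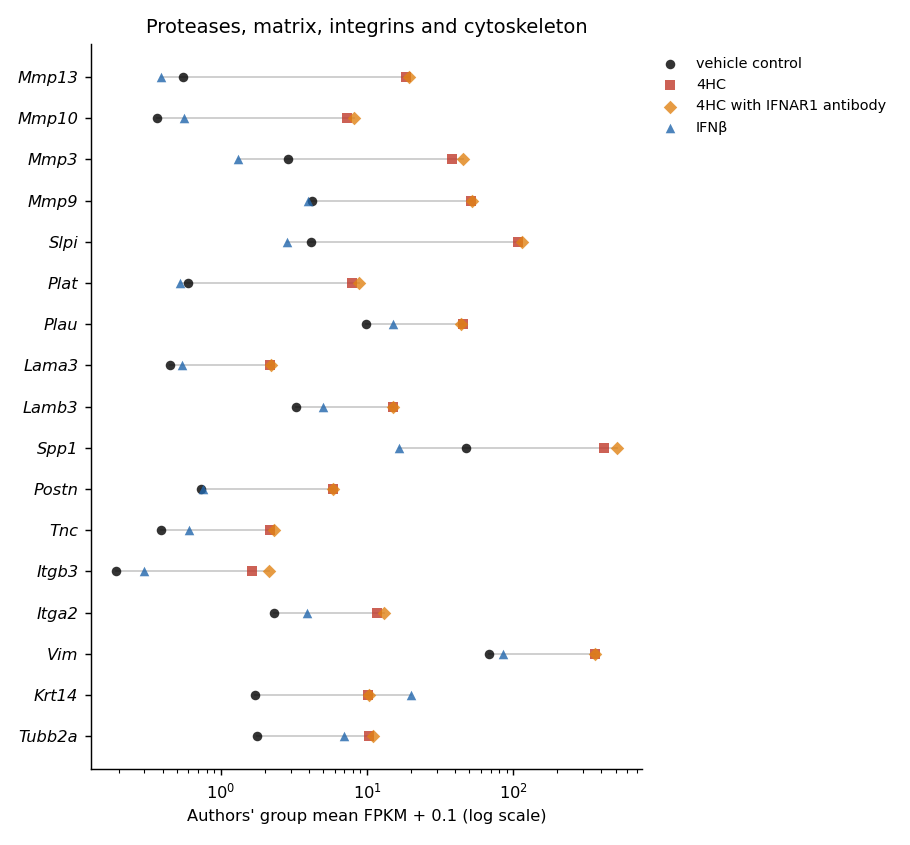
Authors' mean FPKM + 0.1 (x axis, log scale) of 17 named genes (y axis) in vehicle control (black circles), 4HC (red squares), 4HC with the IFNAR1 antibody (orange diamonds) and IFNβ (blue triangles). With 4HC alone and with antibody the points lie close together, and for most genes the IFNβ point lies near control. Krt14 alone has IFNβ above 4HC, at 19.7 against 10.1 FPKM, and Tubb2a has IFNβ between control and 4HC. Spp1 and Mmp3 have IFNβ below control, at 16.4 against 47.3 and 1.22 against 2.76 FPKM.

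Growth factor signalling was described by its ligands, receptors and feedback genes. MAP kinase feedback genes, which are induced by this kinase cascade and restrain it, had 9 of 18 measured members called higher, all 9 of them at 1 FPKM or more in control, and a median log2 ratio of 1.09, or 0.97 over all 19 members. The phosphatase genes Dusp1 (1.47 and 6.33 FPKM), Dusp5 (3.78 and 12.3), Dusp4 (12.6 and 37.5) and Dusp6 (8.86 and 24.5) led them. Spry1, Spred3 and the transcription factors Etv1, Etv4 and Etv5 were the other members called. With IFNβ the list's median was -0.03.

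Ligands and receptors upstream of that cascade were called in part. In the EGFR list 3 of 8 measured were called higher (2 of 7 at 1 FPKM or more in both groups), the receptor Erbb3 (0.983 and 2.48 FPKM), the ligand amphiregulin Areg (2.36 and 5.49) and the feedback inhibitor Errfi1 (17.6 and 36.9). Among other growth factor genes 7 of 20 were called higher (4 of 17 at 1 FPKM or more in both groups). The receptor Pdgfra was at 0.496 and 3.38 FPKM, the FGF carrier Fgfbp1 at 2.50 and 12.9, Igfbp7, which binds insulin-like growth factors, at 28.4 and 116, and placental growth factor Pgf at 0.556 and 2.28. Immediate early genes, which answer growth factors within minutes, had 2 of 18 called higher (11.1%, and 1 of 16 at 1 FPKM or more in both groups) and 1 lower. Fos was at 0.126 and 2.65 FPKM and Ier3 at 25.4 and 92.3, while the stress factor Atf3 was lower, at 22.7 in control and 10.6 with 4HC. Among AP-1 partners Junb was at 52.0 and 67.7 FPKM and Fosl1 at 18.7 and 19.145, both below a fold of 2.

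Of 23 measured TGFβ and BMP genes 7 (30.4%) were called higher, and 5 of 21 at 1 FPKM or more in both groups. The ligand Tgfb1 was at 3.83 FPKM in control and 14.9 with 4HC, the coreceptor Tgfbr3 at 0.293 and 1.66, and Ltbp2, of the latent TGFβ binding family, at 3.59 and 11.4. NOTCH signalling had 4 of 10 called higher (2 of 8 at 1 FPKM or more in both groups), the ligands Dll4 (0.248 and 1.56 FPKM), Dll1 (0.799 and 3.51) and Jag1 (3.59 and 7.55) and the target Hes1 (3.60 and 8.27). WNT signalling had 4 of 17 called higher (2 of 13 at 1 FPKM or more in both groups). These were the receptor Lgr6 (0.446 and 2.09 FPKM), the secreted antagonist Sfrp1 (0.797 and 2.12), the nuclear effector Tcf7 (1.18 and 3.03) and the ligand Wnt10a (3.24 and 7.11). The guidance molecules had 9 of 25 called higher, but 6 of these were measured only through the 4HC group, and 3 of 19 at 1 FPKM or more in both groups were called. In this list Sema7a was at 0.866 and 5.88 FPKM, Sema3e at 1.60 and 7.19, Ephb6 at 0.238 and 1.25, and Sema3b at 0.349 and 1.44. No member of these 4 lists was called lower.

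Small-molecule mediators formed another group. Prostaglandins are made from arachidonic acid by cyclooxygenases and terminal synthases, and 5 of the 8 measured genes of this pathway (62.5%) were called higher, and 2 of 5 at 1 FPKM or more in both groups. The median log2 ratio was 2.03 over the measured genes and 0.56 over all 24. Both cyclooxygenases were among them, Ptgs1 at 1.88 FPKM in control and 8.05 with 4HC and Ptgs2 at 15.9 and 75.7. The terminal synthase genes Ptgds (0.160 and 1.09 FPKM) and Ptges (0.684 and 3.08) and Pla2g7, which degrades platelet activating factor, at 0.930 and 5.56, were the others. Ptges3, the most abundant gene on the list, was lower by less than a fold of 2, at 111 and 57.2 FPKM. Ptgs2 was at 49.0 FPKM with IFNβ, and Ptgs1 at 1.71.

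Nitric oxide synthase uses arginine and the cofactor tetrahydrobiopterin, and genes of both supplies were called with it. Nos2, the inducible synthase, was at 0.0863 FPKM in control and 9.27 with 4HC. Gch1, which starts tetrahydrobiopterin synthesis, was at 0.920 and 2.87 FPKM, and Pts, its next enzyme, was at 3.20 and 6.78. Ass1 and Asl, which rebuild arginine from citrulline, were at 3.92 and 11.4 and at 3.97 and 9.61 FPKM. Of the polyamine genes, the spermine oxidase Smox was at 11.3 and 33.8 FPKM and the acetyltransferase Sat1 at 22.997 and 58.5. In all 8 of 17 measured genes on this list (47.1%) were called higher, and 5 of 14 at 1 FPKM or more in both groups.

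Adenosine and ATP signalling had 6 of 16 measured genes called higher, of which 4 were measured only through the 4HC group, and 2 of 12 at 1 FPKM or more in both groups. The surface nucleotide hydrolase Enpp1, which also cleaves the messenger cGAMP, was at 0.127 and 2.04 FPKM, Enpp2, which makes lysophosphatidic acid, at 0.273 and 2.77, the hydrolase Entpd3 at 1.03 and 2.58, and the nucleotide receptor P2ry6 at 0.0620 and 1.24. Nt5e, which makes extracellular adenosine from AMP, was at 20.4 and 45.0 FPKM. Among retinoid, steroid and nuclear receptor genes 5 of 19 were called higher, but only Rdh10 of the 15 at 1 FPKM or more in both groups. Hsd11b1, which regenerates active glucocorticoid, was at 0.0907 FPKM in control and 5.16 with 4HC (log2 ratio 4.79). The retinol dehydrogenase Rdh10 was at 6.77 and 26.7 FPKM, the retinal reductase Dhrs3 at 0.283 and 1.85, and the vitamin D receptor Vdr at 0.383 and 1.10.

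Genes that handle the drug and its products were taken next. Of 11 measured aldehyde dehydrogenases 3 (27.3%) were called higher, and 1 of 8 at 1 FPKM or more in both groups. Aldh3a1, which oxidises the aldehyde form of the activated drug, was at 0.644 FPKM in control and 9.15 with 4HC (log2 ratio 3.64). Aldh3b1 was at 0.475 and 2.89 FPKM and Aldh16a1 at 1.09 and 2.36. The most abundant member, the mitochondrial Aldh2, was at 58.5 and 93.5 FPKM. Glutathione transferases, which conjugate alkylating agents, accounted for the 8 of 20 measured glutathione genes called higher (5 of 17 at 1 FPKM or more in both groups). Gstt1 was at 0.139 and 2.03 FPKM, Gstm1 at 0.395 and 2.61, and the microsomal Mgst1 at 2.12 and 13.7 and Mgst2 at 0.583 and 4.82. The most abundant transferases were not among them, with Gsto1 at 68.1 and 64.7 FPKM and Gstp1 at 53.1 and 54.8.

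NRF2, the regulator of many glutathione and redox genes, had 2 of 23 measured list members called higher (8.70%, below the background of 12.8%, and 1 of 22 at 1 FPKM or more in both groups), Nqo1 (0.977 and 2.47 FPKM) and Osgin1 (3.68 and 8.06), and the list's median was 0.02. Of 15 measured genes on a list of ABC drug transporters 4 were called higher (2 of 12 at 1 FPKM or more in both groups). Abcb1a was at 0.0205 FPKM in control and 1.11 with 4HC, Abcb1b at 4.24 and 14.9, Abcc3 at 0.532 and 3.34, and Abcg2 at 1.20 and 5.41. Abcb1a and Abcb1b are closely related copies, and how the counting divided shared reads is not known here.

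CDK inhibitors, G1 cyclins, death genes and autophagy genes were also described. Of 23 measured CDK inhibitors and G1 cyclins 6 were called higher (5 of 22 at 1 FPKM or more in both groups), with Cdkn3 at 1.06 and 6.19 FPKM, the cyclin Ccng2 at 3.25 and 12.5, the repressor E2f8 at 2.20 and 7.97, and cyclin E1 (Ccne1) at 1.52 and 3.56. The p53 target Cdkn1a was at 1.65 and 3.54 FPKM. No BCL2 family gene of 15 measured was called higher, and Bbc3, which encodes the killer protein PUMA, was lower, at 7.09 FPKM in control and 3.30 with 4HC. The effectors Bax (33.5 and 35.0 FPKM) and Bak1 (26.0 and 28.6) differed by less than a fold of 1.5. Autophagy had 4 of 37 called higher (10.8%), Tecpr1 (1.10 and 5.67 FPKM), Atg9b (2.60 and 7.50), Optn (3.48 and 8.41) and Wipi1 (6.86 and 15.4), with a median of 0.11, close to that of all measured genes.

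**Figure D4:**
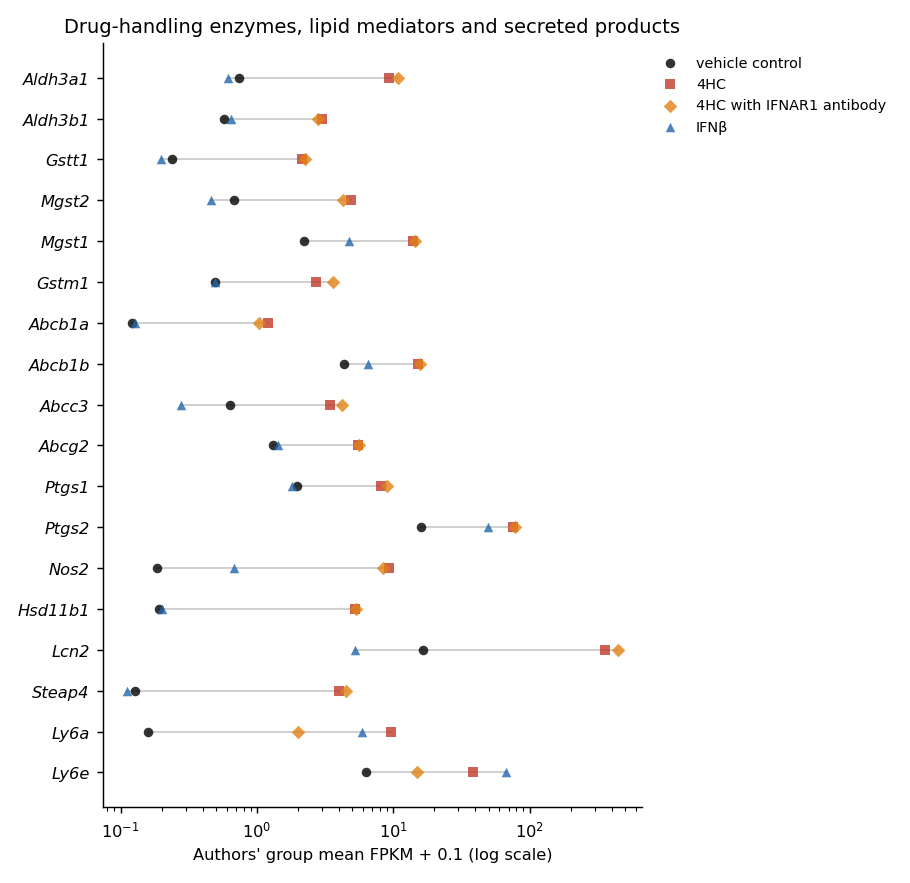
Authors' mean FPKM + 0.1 (x axis, log scale) of 18 named genes (y axis) in vehicle control (black circles), 4HC (red squares), 4HC with the IFNAR1 antibody (orange diamonds) and IFNβ (blue triangles). For most genes both 4HC points lie together and the IFNβ point lies near or below control. For Ly6a and Ly6e the antibody group was between control and 4HC, at 1.89 and 14.7 FPKM, and IFNβ was above control. IFNβ was also above control for Nos2 (0.577 against 0.0863 FPKM), Mgst1 (4.65 against 2.12), Ptgs2 (49.0 against 15.9) and Abcb1b (6.42 against 4.24).

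Epithelial secretions and iron handling overlapped through lipocalin 2 (Lcn2), which binds bacterial iron carriers. Lcn2 was at 16.3 FPKM in control and 355 with 4HC (log2 ratio 4.43), and at 5.15 with IFNβ. The secretory list had only 6 measured genes of 24, and all 6 were called higher, 4 of them at 1 FPKM or more in control. Besides Lcn2 and Spp1 these included the chaperone clusterin Clu (12.7 and 124 FPKM) and the chitinase-like Chil1 (0.128 and 1.32). Of 27 measured iron and haem genes 9 (33.3%) were called higher, and 6 of 23 at 1 FPKM or more in both groups. The iron reductase Steap4 was at 0.0273 and 3.89 FPKM, the ferroxidase ceruloplasmin Cp at 3.87 and 29.7, and the biliverdin reductase Blvrb at 0.799 and 3.84. The ferritin chains differed in direction, with the heavy chain Fth1 at 410.1 and 834 FPKM and the light chain Ftl1 at 1293 and 835, the latter below a fold of 2.

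Of 18 measured S100 proteins and annexins 7 were called higher (3 of 13 at 1 FPKM or more in both groups). S100a8, an alarmin of neutrophils and stressed epithelium, was listed at 0 in control and at 1.26 FPKM with 4HC. The psoriasin relative S100a7a was at 0.756 and 4.78 FPKM, S100a16 at 0.149 and 1.11, and Anxa8 at 0.560 and 5.07. Of 16 measured tetraspanins and exosome markers 4 were called higher (3 of 14 at 1 FPKM or more in both groups), Tspan12 (1.38 and 3.98 FPKM), Tspan13 (0.637 and 1.57), Cd9 (45.5 and 96.1) and Cd151 (9.10 and 18.8). Only 3 of 19 Ly6 antigens were measured and all were called higher, of which only Ly6e was at 1 FPKM or more in control. The interferon-inducible Ly6a was at 0.0584 and 9.46 FPKM and Ly6e at 6.23 and 38.5, and Lypd3 at 0.698 and 1.58. Of 30 measured glycan enzymes 5 (16.7%) were called higher (3 of 26 at 1 FPKM or more in both groups), Has2 and St3gal2 and the genes St3gal1 (1.20 and 4.86 FPKM), St3gal5 (1.21 and 3.71) and Sulf2 (0.419 and 1.07).

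The core machinery of gene expression stood at the other end. No RNA polymerase subunit of 27 measured was called higher and 2 were called lower (7.41%, against 2.41% of all measured genes). These were Polr2k, at 44.1 FPKM in control and 17.9 with 4HC, and Polr2d, at 26.5 and 11.7. The list's median was -0.35, the lowest of the lists, and 22 of its 27 members were below a ratio of 1. Of 45 measured genes of mRNA export, decay and 3' end processing, the export adaptor Alyref was called lower (106 and 45.5 FPKM) and none higher, with a median of -0.27 and 31 members below a ratio of 1. The most abundant member after it, the helicase Ddx39b, was at 48.3 and 56.7 FPKM.

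Translation factors had no call among 41 measured, with a median of -0.16 and 28 members below a ratio of 1. The most abundant, Eef1a1, was above control all the same, at 1667 and 2529 FPKM, and Eef2 was at 640.03 and 649.8. Aminoacyl-tRNA synthetases had 1 of 20 called higher, Qars (17.6 and 36.5 FPKM), and a median of -0.18, with Nars at 132 and 99.6 FPKM and Rars at 123 and 92.0. Nuclear transport had 1 of 39 called higher, the Ran GTPase activator Rangap1 (15.04 and 35.0 FPKM), while Ran itself was at 165 and 112 and Ranbp1 at 162 and 133. The median of this list was 0.04, with 21 members above a ratio of 1 and 18 below. With IFNβ the medians of the RNA polymerase, mRNA export and translation factor lists were 0.01, 0.04 and 0.03.

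Chromatin regulators had 1 of 29 called higher, the methylation maintenance factor Uhrf1 (7.01 and 17.1 FPKM), and Suz12 and Smarce1, the most abundant members, were at 23.5 and 21.1 and at 23.7 and 20.6. No gene of serine, one-carbon and nucleotide synthesis was called among 30 measured. Phgdh, the first enzyme of serine synthesis, was at 222 and 172 FPKM and Psat1, a later one, at 111 and 105. Amino acid and glucose transporters had 2 of 15 called higher (13.3%), Slc2a9 (0.436 and 1.22 FPKM) and Slc7a7 (0.755 and 1.72), both measured only through the 4HC group, with a median of -0.26, and 0.03 over all 27 members. In the zinc list the importer Slc39a4 was called higher (3.03 and 11.6 FPKM) and the exporter Slc30a1 lower (3.51 and 1.59), of 18 measured.

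Lipid metabolism was little represented among the calls. Of 32 measured fatty acid and triglyceride genes 2 were called higher, both of β-oxidation, Cpt1a (1.37 and 6.17 FPKM) and Acadl (14.3 and 40.7). The list's median was 0.42 all the same, with 27 members above a ratio of 1 and 5 below. Of 21 sphingolipid genes the sphingomyelin synthase Sgms2 was called higher (7.03 and 14.4 FPKM), and the most abundant members, Cers2 and Degs1, were at 83.5 and 60.2 and at 53.1 and 46.6.

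The circadian clock was the list with the most lower calls. Of 15 measured genes 3 were called lower (20.0%, against 2.41% of all measured genes). These were the repressors Per2 (1.46 and 0.423 FPKM), Ciart (27.5 and 11.6) and Cry1 (9.001 and 4.21). Per2 was measured only through the control group, and 2 of the 14 members at 1 FPKM or more in both groups were called lower. Another 2 genes were called higher, among them Bhlhe40 (8.34 and 22.4). All 3 lower genes were also below control with IFNβ, at 0.253, 4.07 and 5.53 FPKM, and the list's median with IFNβ was -1.25.

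Germline genes, which a loss of DNA methylation can release, were not measured in either group. Their highest levels, in Sycp3 and Taf7l, were 0.286 and 0.189 FPKM in control. No long noncoding RNA of 16 measured was called, and the small nucleolar RNA host genes Snhg1 and Snhg12, the most abundant, were at 227 and 181 and at 81.2 and 67.4 FPKM.

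**Figure D5:**
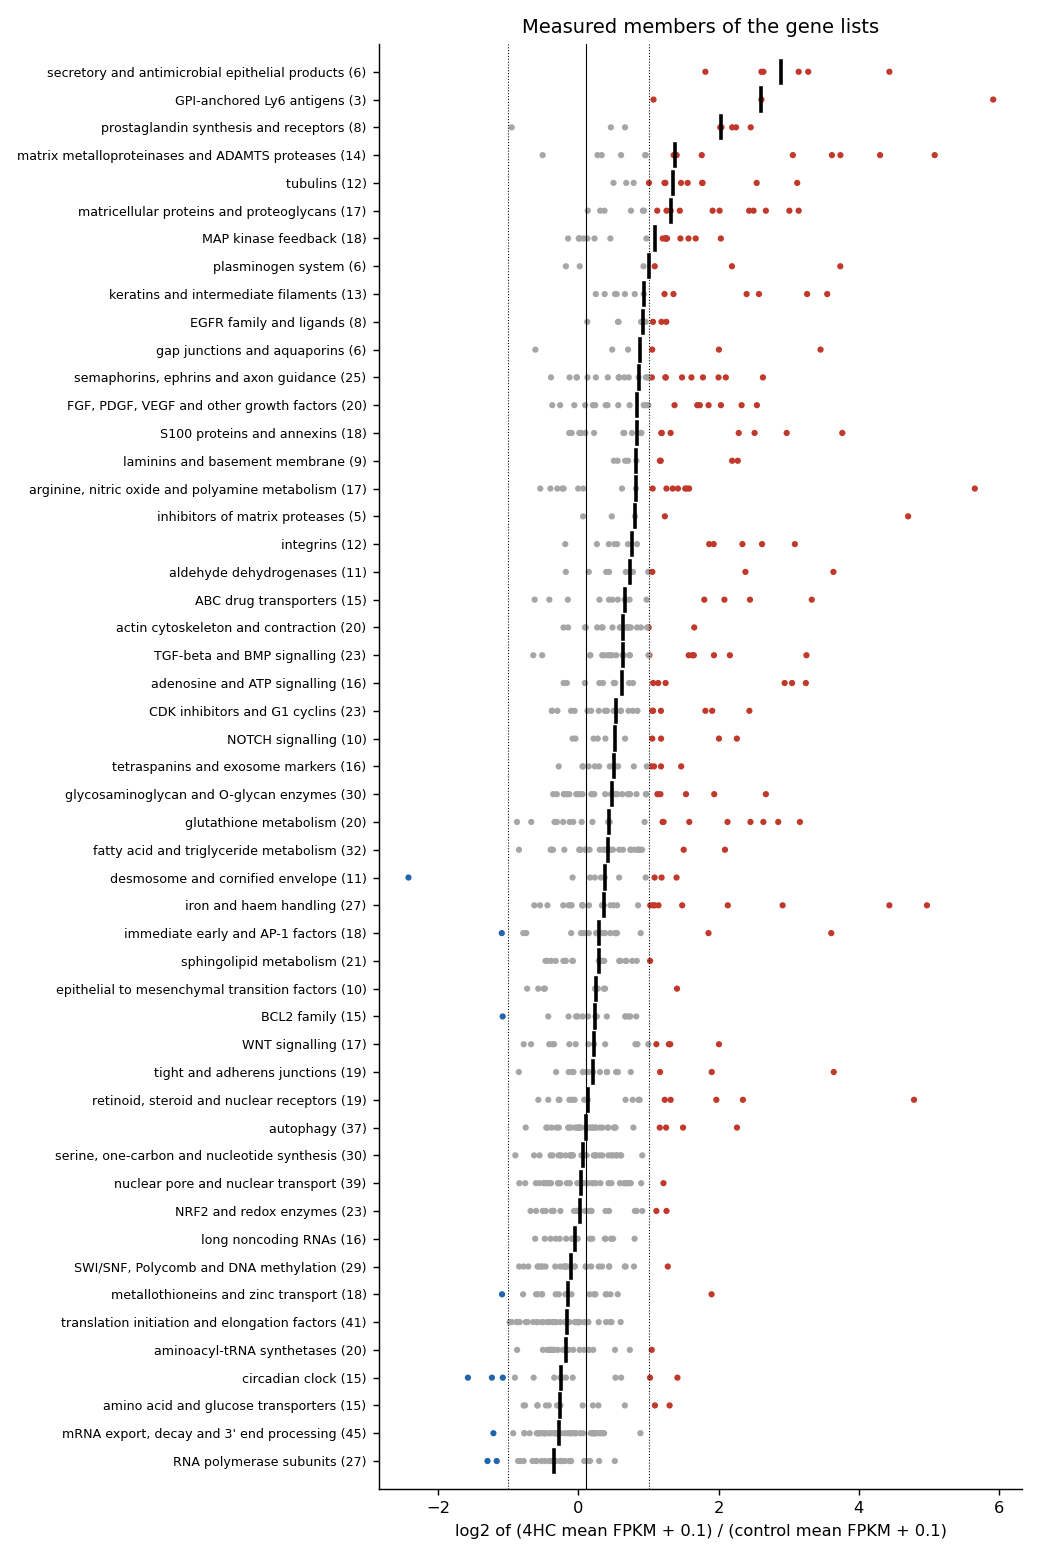
Log2 ratio of 4HC to control (x axis, on mean FPKM + 0.1) of each measured member (points) of the 51 lists with a measured gene (y axis, number measured in parentheses). Red points were called higher and blue lower, black bars are list medians, the solid line is the median of all measured genes (0.11) and dotted lines mark a fold of 2. The lists at the top have most points on the right of the upper line, and the bottom lists, led by RNA polymerase subunits with a median of -0.35, lie on both sides of 0.

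Counted once each, the 52 lists held 940 measured genes, of which 198 were called higher and 10 lower. The lists were chosen with earlier results of these data known, so the counts describe these genes and are not independent support for a programme.

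The levels with the IFNAR1 antibody are set beside these values, with the reminder that every ratio to control uses the same 2 control libraries. Over all members in the table, the median log2 ratio to control of matrix proteases was 0.94 for the drug alone, 1.02 for drug plus antibody and 0.06 for IFNβ. For matricellular proteins it was 0.91, 1.00 and 0.03, and for MAP kinase feedback 0.97, 1.16 and 0.01. For RNA polymerase subunits it was -0.35, -0.37 and 0.01, and for keratins and intermediate filaments 0.54, 0.68 and 0.79. For prostaglandin genes it was 0.56, 0.42 and 0.00 over all members, most of them not measured. Over the 8 measured prostaglandin genes the medians were 2.03, 2.24 and -0.17, higher with the antibody than without. Interferon-stimulated genes had 1.95, 0.77 and 2.99 over all members. Among single genes Mmp13 was at 18.5 FPKM with 4HC and 19.2 with added antibody, Slpi at 108 and 115, Aldh3a1 at 9.15 and 10.7 and Vim at 359.5 and 360.2.

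The labelled cell type was checked against marker genes. Of 12 epithelial markers 11 were measured, with Krt18 at 88.1 and 206 FPKM, Krt8 at 52.3 and 134, Krt7 at 83.1 and 132, Krt19 at 10.5 and 18.4, Cldn4 at 83.1 and 110.2, Cldn3 at 37.1 and 34.9, Cldn7 at 15.3 and 16.8, Epcam at 19.3 and 32.5 and Elf3 at 6.17 and 7.48. The basal keratin Krt5 was at 0 and 0.0142 FPKM. Of 10 leukocyte markers only Cd68, a lysosomal protein that other cells also express, was measured (2.52 and 8.46 FPKM), and the summed level of the list was 2.52 in control and 8.56 with 4HC. Its defining genes were at or near 0, with Ptprc at 0 and 0.00699 FPKM, Itgam at 0.00597 and 0.0436, and Cd4, Cd8a, Nkg7 and Emr1 at 0 in both. Of 8 fibroblast markers only Pdgfra was measured, and Dcn was at 0 and 0.318 FPKM, Col1a1 at 0.0723 and 0.229 and Lum at 0 in both. None of 6 endothelial markers was measured, and their summed level was 0.0415 FPKM in control and 0.0849 with 4HC.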

How the data were processed

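Poly(A)-selected, strand-specific RNA libraries of cultured 4T1 cells were sequenced. Per the labels and the study's methods, the authors mapped reads to mm9 with TopHat2, counted them per gene with featureCounts and compared groups with edgeR; neither versions nor the strand setting is given in the sources used here. The deposited table holds FPKM values that the authors averaged over the libraries of each group, with the authors' ratios, fold changes and p-values, which were not used. Depth per library was not recovered from the group means, and their number (2 and 3 libraries) limits the precision. The libraries are separate samples per the labels.

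Log2 ratios were computed on FPKM + 0.1 with Python 3.11.15, numpy 2.4.6 and pandas 2.3.3. Genes were called at a fold of 2 with the higher group at 1 FPKM or more, and the call rule was checked on simulated means. A design with a test per library could not be used. Lists and named genes omit 27 rows named as dates, 24078 of 24197 names matched the reference tables, and 10 of 1686 list entries had no row. Members and lists were chosen with earlier results of these data known.

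Named genes were, per list, up to 4 called members with the largest ratio in each direction and, with fewer than 2 called, the 2 most abundant; the 15 largest differences each way at 5 FPKM or more outside the interferon, chemokine and mitosis lists (small RNA loci, and for rises genes at a fold of 2 with IFNβ, left out); and the cell markers. Other genes named (Adamts4, Adam8, Adam12, Adam19, Mmp14, Adamts1, the remaining Mmp genes, Timp1, Timp2, Fn1, Thbs1, Itgb1, Spry1, Spred3, Etv1, Etv4, Etv5, Junb, Fosl1, Ptges, Ptges3, Pts, Asl, Sat1, Nt5e, Aldh2, Gsto1, Gstp1, Cdkn1a, Fth1, Ftl1 and St3gal2) were chosen after their values were seen. Promoters are RefSeq sequences of GRCm38.p6, matched by symbol. Some list members are not reported here.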

Additional observations from a re-analysis of the deposited data

How the results depend on the processing

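The 1361 higher and 255 lower calls became 822 and 151 with a pseudocount of 1 FPKM, 2606 and 1100 at a fold of 1.5, 629 and 54 at a fold of 3, and 689 and 167 when the higher group had to reach 5 FPKM. Without small RNA loci the lower calls were 162 and the higher calls 1333. The share of higher among all calls was 84.2% as reported, 70.3% at a fold of 1.5 and 92.1% at a fold of 3. A pseudocount of 0.01, a minimum of 0.5 FPKM and centring on the median of genes at 1 FPKM in both groups (a shift of 0.07 on the log2 scale) kept both counts within 1.5 times. Of 172 named genes that were called, 109 lost the call under at least 1 of these 8 settings: 35 with a pseudocount of 1, 62 at 5 FPKM, 69 at a fold of 3 and 9 after centring. The median of 2 lists near 0 changed sign after centring, NRF2 (0.02 to -0.05) and nuclear transport (0.04 to -0.03), and 5 others did so at another FPKM minimum: epithelial to mesenchymal transition factors (0.25 to -0.47 at 0.5 FPKM) and, at 5 FPKM, WNT (0.22 to -0.10), zinc (-0.14 to 0.23), sphingolipid (0.30 to -0.08) and chromatin (-0.11 to 0.11) genes. When only the 250 bases before the start were read, the AP-1 letters were present for 10.0% of genes called higher and 5.43% of measured genes. No paired analysis was possible because the table gives no value for a single library, and leaving out each replicate was not run for the same reason. With 2 control libraries averaged into 1 value, a control that stood apart would enter every ratio.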
